A study of Caenorhabditis elegans with 9 samples.

Results

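The homeobox and bHLH genes that carry numbered *ceh* and *hlh* names were followed in mRNA sequencing of *C. elegans* larvae. The members were picked by name only, with earlier results of these data known. They were all genes of the count table whose symbol is *ceh* or *hlh* with a number, with *hlh-30* left out. This gave 87 genes, 63 *ceh* and 24 *hlh*, of 46739 in the table. Wild-type N2 worms were fed bacteria from the L1 to the L4 stage. The bacteria carried *cco-1* RNAi (3 libraries), *his-3* RNAi (3 libraries) or the empty vector, EV (3 libraries). *cco-1* encodes a subunit of complex IV of the mitochondrial respiratory chain, and the *his-3* clone targets several genes for histone H2A, so it is not specific to 1 gene. RNA came from whole worms.

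Homeobox genes encode transcription factors that bind DNA through the homeodomain, and many of them fix the identity of single neurons, muscles or regions along the body. They fall into classes by sequence, among them the Hox-like and NK-like genes of the ANTP class and the PRD, LIM, POU, Sine oculis, CUT and TALE classes. Basic helix-loop-helix (bHLH) proteins pair through their helix-loop-helix part and bind E-box sequences; proneural, muscle and glial regulators are among them. Classes were assigned here from general knowledge of the genes and not from the files.

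Each library had 25129763 to 32017517 reads on genes. The gene of *cco-1*, listed as *cox-5B*, was at 0.373 of its EV mean with *cco-1* RNAi, and *his-3* itself at 0.623 of its EV mean with *his-3* RNAi, each below all EV libraries. The other RNAi also went with lower levels of each target, *cox-5B* at 0.746 of EV with *his-3* RNAi and *his-3* at 0.101 of EV with *cco-1* RNAi, so *his-3* was lower with *cco-1* RNAi than with its own RNAi. A developmental marker list, for adult cuticle and late L4, was far lower with *cco-1* RNAi than in the other groups. With *his-3* RNAi against EV, 0 of its 5 genes rose, 1 fell and 4 were not called. All 5 genes of the adult cuticle and late L4 list fell with *cco-1* RNAi, and their summed normalized counts ran between 4069 and 7286 with *cco-1* RNAi, 61592 and 73687 under *his-3* RNAi and 79113 and 83469 in EV; of these 5 genes, *col-7* alone was at 0 in a library (1 with *cco-1* RNAi). The part of developmental stage in the results that follow was not tested. The labels number the libraries but do not state separate cultures, so p-values measure the spread between these libraries, which may be technical.

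Per length of transcript, most of the family was scarce. In RPKM, read counts scaled to transcript length and library size, 7 members reached 10 in EV, 30 lay between 1 and 10, and 50 were under 1. The order was led by *hlh-11*, a relative of mammalian AP-4, at 33.5 ± 1.53 RPKM in EV (SD, n = 3). The ONECUT gene *ceh-38* followed at 23.3 ± 0.329 RPKM. Next came *ceh-18*, a POU gene of the gonadal sheath cells, at 18.9 ± 0.568 RPKM and *ceh-60*, a PBC gene of the TALE class, at 18.2 ± 0.578 RPKM. The gap between this pair, and that between *ceh-60* and *ceh-20* at 17.3 ± 0.521 RPKM, did not exceed the spread of their libraries. The Hox gene *ceh-13*, the worm relative of *labial*, came next at 13.1 ± 0.638 RPKM.

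**Figure D1:**
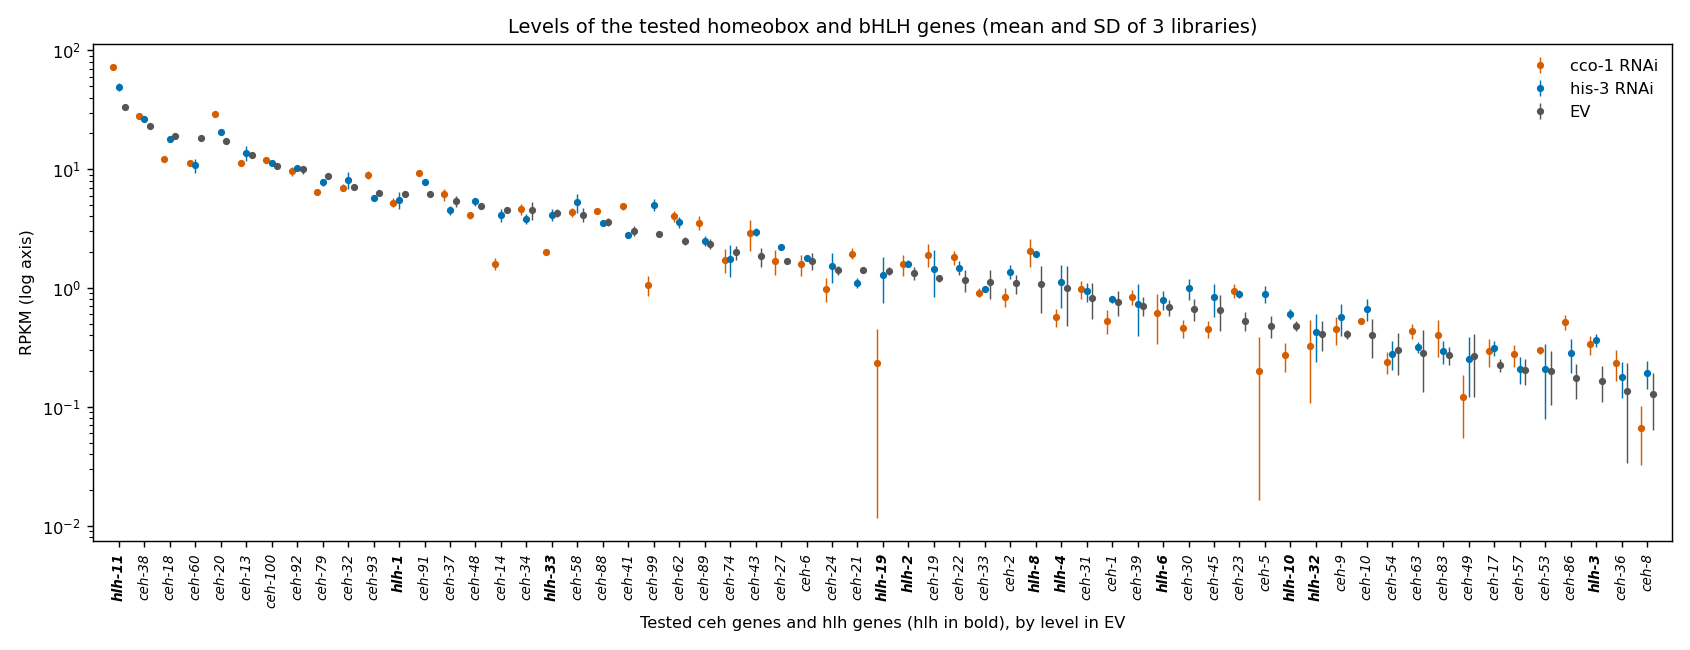
Mean RPKM and SD (bars, n = 3 libraries) of the tested genes, on a log axis, in order of the EV level, with *cco-1* RNAi, *his-3* RNAi and EV side by side. The SD of *hlh-19* with *cco-1* RNAi is larger than its mean, so its lower bar is cut short. *hlh-11* stands highest in every group, and *ceh-14*, *ceh-99*, *hlh-33* and *hlh-19* lie lower with *cco-1* RNAi than in EV.

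Of the 87 members, 61 had enough reads to be tested (over 5 reads in over 3 libraries), 50 *ceh* and 11 *hlh* genes. The other 26 comprised 3 without a read in any library, 15 with at most 5 reads in any library and 8 with more. Precision followed the level: the median coefficient of variation within groups was 7.40% for the 22 *ceh* genes whose mean normalized count reached 100, and 26.4% for the 14 under 20. A gene was called when its adjusted p was under 0.05.

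With *cco-1* RNAi against EV, 17 of the 61 tested members rose (27.9%) and 9 fell (14.8%), where 34.9% of all 16817 genes tested rose and 35.9% fell. The risers were led by *ceh-86* and *hlh-11*, and the fallers by *hlh-19*, *ceh-14*, *ceh-99* and *hlh-33*. Those 6 were also the members called past a log2 fold change of 1 in size, 2 higher and 4 lower, beside 10.8% and 11.8% of all genes. Among the 42 members whose mean normalized count reached 20, 24 were called (57.1%), beside 74.4% of all genes at that level. Of the 19 under it, 2 were called (10.5%), beside 40.5% of all genes so scarce. The 3 libraries of *cco-1* RNAi lay wholly above those of EV for 17 tested members and wholly below for 13, while 75.7% of all genes did not overlap in 1 direction or the other. The median log2 fold change was 0.07 for the tested members and 0.01 for all genes. Of the 26 calls, 22 stood under all 21 alternative settings tried. The setting with a prior count of 2, counted in every such tally, alters only the fold size and could not lose a call. The exceptions were *ceh-19*, *ceh-43*, *ceh-48* and *hlh-10*.

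With *his-3* RNAi against EV, 13 of the 61 rose (21.3%) and 4 fell (6.56%), where 26.9% of all genes tested rose and 27.9% fell. Only *hlh-3* was called past a log2 fold change of 1, 1 higher and 0 lower, beside 7.87% and 3.6% of all genes. The group libraries did not overlap for 24 tested members, 19 above and 5 below, against 60% of all genes. Among the 42 members at a mean of at least 20, 15 were called (35.7%), beside 58% of all genes at that level. Of the 19 scarcer ones 2 were called (10.5%), beside 27.9% of all genes under that mean. The median log2 fold change was 0.16 for the tested members and 0.02 for all genes. Of these calls, 6 of the 13 higher (*hlh-11*, *ceh-20*, *ceh-38*, *ceh-62*, *ceh-91* and *ceh-99*) and 1 of the 4 lower (*ceh-60*) stood under all 21 settings. The counts moved with the scaling between libraries. TMM gave 13 higher and 4 lower, upper quartile scaling 19 and 1, scaling by library size alone 25 and 1, and scaling by *act-1* and *pmp-3* 28 and 1. These last 3 scalings also shifted the median of all genes to 0.10, 0.24 and 0.31. Relative to that median, the tested members lay 0.13 to 0.14 higher under every scaling. A change of scaling shifts all genes nearly alike, so this distance could hardly differ and is no check on the members.

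Both treatments shared their EV libraries, so each comparison's values are given side by side and no overlap is read from them. Counts in the marker lists can be set beside all genes tested. Of these, 34.9% rose and 35.9% fell with *cco-1* RNAi, and 26.9% rose and 27.9% fell with *his-3* RNAi. *ceh-99* and *ceh-21* were called in opposite directions, *ceh-21* with the limits given below.

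**Figure D2:**
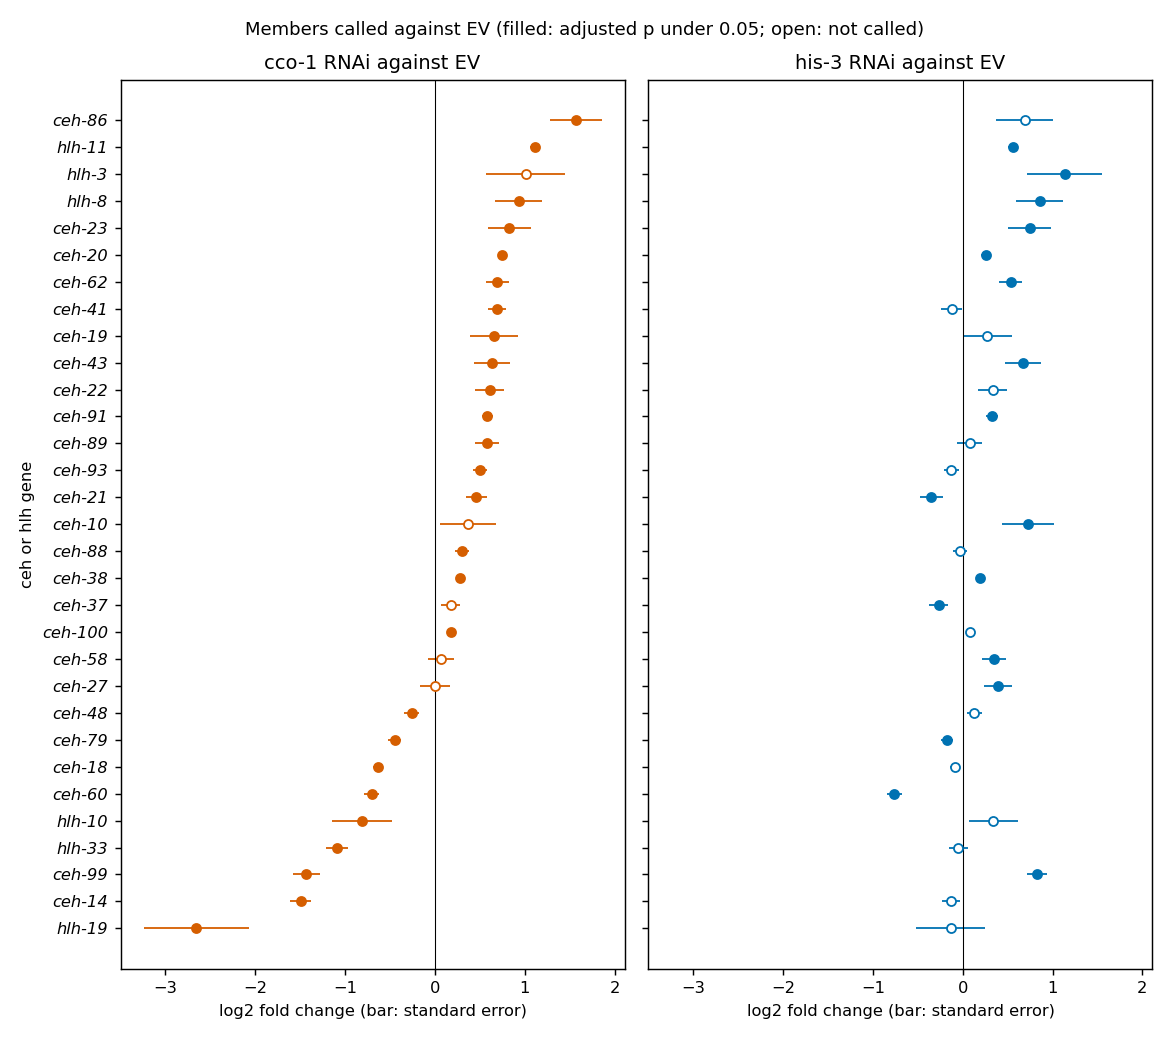
Log2 fold change of each member called in 1 or both comparisons, *cco-1* RNAi against EV (left) and *his-3* RNAi against EV (right), with the standard error as a bar and filled points for an adjusted p under 0.05. *hlh-11* lies right of 0 and *ceh-60* left of 0 in both panels, and *ceh-99* lies on opposite sides.

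Among the TALE genes, *ceh-20* and *ceh-60* went opposite ways. Both encode PBC proteins, relatives of Extradenticle and Pbx: CEH-20 is a partner of Hox proteins, and CEH-60 acts in the intestine on yolk protein genes. Libraries had 1077, 1022 and 1062 normalized counts of *ceh-20* with *cco-1* RNAi, 723, 748 and 777 under *his-3* RNAi and 647, 611 and 619 in EV. The 3 groups were fully separate, with *cco-1* RNAi on top and EV at the bottom. Against EV, *ceh-20* rose by 0.75 (SE 0.053, adjusted p = 1.65e-09) on the log2 scale with *cco-1* RNAi, while *his-3* RNAi gave 0.26 (SE 0.054, adjusted p = 0.000657), and the treatments themselves differed by 0.49 (SE 0.052, adjusted p = 2.72e-07). Reads of *ceh-60* numbered, after normalization, 418, 446 and 402 with *cco-1* RNAi, 375, 473 and 370.1 under *his-3* RNAi and 677, 714 and 675 in EV. Every treated library lay below every EV library, and the treated groups overlapped each other. The gene fell by 0.70 on the log2 scale with *cco-1* RNAi (SE 0.084, adjusted p = 1.27e-06), and *his-3* RNAi gave -0.76 (SE 0.083, adjusted p = 8.87e-07), with no call between the treatments (0.06 (adjusted p = 0.58)). In whole worms, fewer cells that use a gene and less RNA per cell cannot be told apart. Exons of *ceh-60* and of *ets-4* overlap on opposite strands, as do those of *ceh-20* and F31E3.8. Among other members discussed, *ceh-5*, *ceh-19*, *ceh-22*, *ceh-30*, *ceh-32*, *ceh-34*, *ceh-37*, *hlh-1* and *hlh-8* also had an exon overlap on the other strand. The methods of the study do not state whether counting took the strand into account. Of 5 intestinal markers, 3 rose and 2 fell with *cco-1* RNAi, while all 5 fell with *his-3* RNAi. Their summed normalized counts ran from 65112 to 67548 with *cco-1* RNAi, 26403 to 32116 with *his-3* RNAi and 39652 to 42505 in EV, and their part in the *ceh-60* result was not tested.

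The vitellogenins, yolk proteins whose genes are known to need *ceh-60*, were listed for comparison. All 6 fell in both comparisons, with a median log2 fold change of -4.33 for *cco-1* RNAi and -2.62 under *his-3* RNAi. *vit-2* averaged 4896 ± 497 normalized counts with *cco-1* RNAi, 4934 ± 229 with *his-3* RNAi and 25324 ± 2298 in EV (SD, n = 3 each). These genes are also switched on late in development, and what part stage or *ceh-60* had in their fall was not tested. The partner of CEH-60 in this role, *unc-62*, another TALE gene, fell as well, with a log2 fold change of -0.21 (adjusted p = 0.00956) for *cco-1* RNAi and -0.34 (adjusted p = 0.000311) under *his-3* RNAi.

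LIM, POU and Hox-like members are few, and the large changes among them were in *ceh-14* and *ceh-18*. *ceh-14* is a LIM homeobox gene that specifies thermosensory and other neurons. Normalized counts of *ceh-14* were 78.8, 96.8 and 82.9 with *cco-1* RNAi, 203, 252 and 211 under *his-3* RNAi and 252, 231 and 246 in EV. All *cco-1* RNAi libraries were below 100 and all others above 200. Its log2 fold change was -1.49 (SE 0.12, adjusted p = 5.85e-09) for *cco-1* RNAi, while *his-3* RNAi gave -0.13 (adjusted p = 0.274). *ceh-18*, needed in sheath cells to hold oocytes in meiotic arrest, had 932, 849.6 and 848 normalized counts with *cco-1* RNAi, 1226, 1372 and 1261 under *his-3* RNAi and 1322, 1366 and 1404 in EV. Here too the *cco-1* RNAi libraries stood apart below the rest, while those of *his-3* RNAi and EV overlapped. *ceh-18* fell by 0.64 on the log2 scale with *cco-1* RNAi (SE 0.056, adjusted p = 3.02e-08). With *his-3* RNAi it measured -0.08 (adjusted p = 0.202), a value that turned to 0.13 (adjusted p = 0.0351) when libraries were scaled by their size and to 0.21 (adjusted p = 0.00575) by *act-1* and *pmp-3*. Of 8 germline markers, 1 rose and 3 fell with *cco-1* RNAi, and 5 rose and 3 fell with *his-3* RNAi. Their sums ran from 40456 to 41526 with *cco-1* RNAi, 43978 to 47099 with *his-3* RNAi and 47392 to 47962 in EV. Of 8 sperm markers, 0 rose and 8 fell with *cco-1* RNAi, and 3 rose and 0 fell with *his-3* RNAi. No markers of sheath cells were listed, and the part of germline or sperm in the *ceh-18* result was not tested. The other POU gene tested, *ceh-6*, a regulator of the excretory and rectal cells, was called in neither comparison. Neither was the Hox gene *ceh-13*, at -0.21 (adjusted p = 0.0566) for *cco-1* RNAi and 0.07 (adjusted p = 0.567) under *his-3* RNAi.

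**Figure D3:**
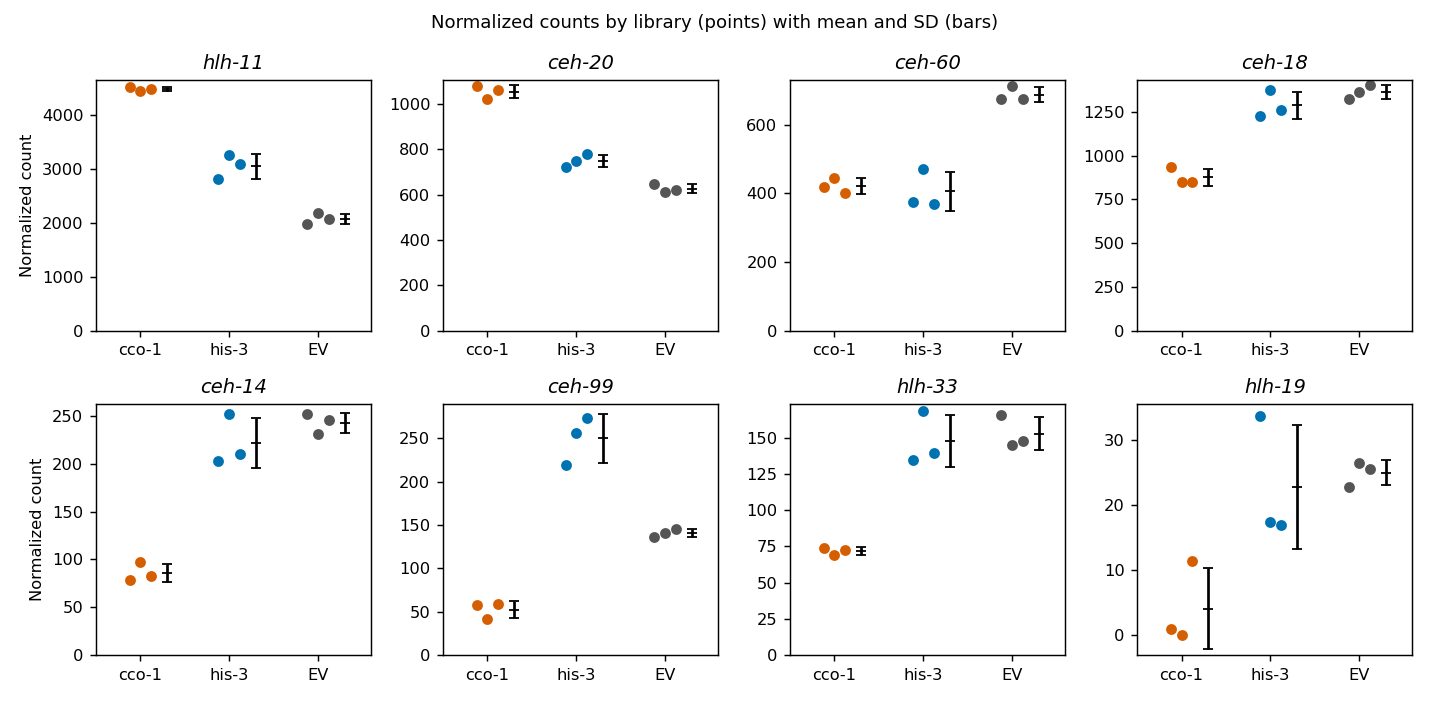
Normalized counts of 8 members in each library (points), with the mean and SD of the 3 libraries of a group (bars), for *cco-1* RNAi, *his-3* RNAi and EV. The *cco-1* RNAi libraries lie above all EV libraries for *hlh-11* and *ceh-20* and below them for the other 6, and *ceh-99* is highest with *his-3* RNAi.

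NK-like genes form a large class here, with 14 of 18 members tested. With *cco-1* RNAi 5 rose and 0 fell, with a median log2 fold change of 0.18. With *his-3* RNAi 4 rose and 0 fell, with a median of 0.36. Among all genes tested, 34.9% rose and 35.9% fell with *cco-1* RNAi, and 26.9% rose and 27.9% fell with *his-3* RNAi. *ceh-62*, a member with no role given here, had 146, 138 and 120.3 normalized counts with *cco-1* RNAi, 107, 133 and 122 under *his-3* RNAi and 75.7, 86.2 and 88.02 in EV. Each treated library exceeded each EV library, giving log2 fold changes of 0.70 (SE 0.13, adjusted p = 0.000125) for *cco-1* RNAi and 0.53 (SE 0.13, adjusted p = 0.00202) under *his-3* RNAi. *ceh-43*, the worm Distal-less gene of head epidermis and neurons, had 112, 59.9 and 88.5 with *cco-1* RNAi, 89.9, 94.7 and 81.2 under *his-3* RNAi and 46.7, 53.02 and 66.3 in EV. The *cco-1* RNAi libraries overlapped those of EV. Its change of 0.64 (adjusted p = 0.0109) with *cco-1* RNAi was 0.40 (adjusted p = 0.0908) without the first *cco-1* RNAi library and 0.53 (adjusted p = 0.0526) without the first EV library, and that of 0.67 (adjusted p = 0.00913) with *his-3* RNAi was 0.53 (adjusted p = 0.0622) without the first EV library. *ceh-23*, known from a few sensory and interneurons, was called higher with both treatments, at 0.83 (adjusted p = 0.00581) for *cco-1* RNAi and 0.75 (adjusted p = 0.0142) under *his-3* RNAi. It is scarce, with mean normalized counts of 28.1 with *cco-1* RNAi, 26.5 under *his-3* RNAi and 15.7 in EV. Without the first EV library the *his-3* RNAi value was 0.57 (adjusted p = 0.0832). *ceh-27* had 71.6, 53.9 and 45.4 with *cco-1* RNAi, 76.8, 72.7 and 74.6 under *his-3* RNAi and 58.1, 56.3 and 56.8 in EV. The *his-3* RNAi libraries lay above those of EV, and the call (0.39 (adjusted p = 0.0457)) was lost under 11 of the 21 settings, including leaving out any 1 of the EV or *his-3* RNAi libraries. For *cco-1* RNAi it measured 0.01 (adjusted p = 0.979). Exons of *ceh-27* overlap those of F46F3.22 on the same strand.

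*ceh-22*, the NK-2 gene that helps switch on the pharyngeal myosin gene *myo-2*, rose by 0.61 (SE 0.16, adjusted p = 0.00274) on the log2 scale with *cco-1* RNAi, while *his-3* RNAi gave 0.34 (adjusted p = 0.0914). All 4 pharyngeal muscle markers rose with *cco-1* RNAi, and 0 rose and 1 fell with *his-3* RNAi. Their summed normalized counts lay between 38402 and 39023 with *cco-1* RNAi, 24299.9 and 26899.5 under *his-3* RNAi and 25098.5 and 27347.5 in EV. *myo-2* itself was at 14765 ± 106 with *cco-1* RNAi and 11282 ± 716 in EV (SD, n = 3 each). The part of pharyngeal tissue in the *ceh-22* result was not tested.

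Within the CUT class, whose genes carry a cut domain beside the homeodomain, 6 members were tested. Of these, 3 rose and 1 fell with *cco-1* RNAi, beside 34.9% and 35.9% of all genes tested. With *his-3* RNAi 1 rose and 1 fell, beside 26.9% and 27.9%. The abundant *ceh-38* moved little but evenly, to 2348, 2219 and 2316 normalized counts with *cco-1* RNAi and 2093, 2286 and 2092 under *his-3* RNAi, against 1879.6, 1878 and 1925 in EV. All treated libraries exceeded all EV libraries, at log2 fold changes of 0.28 (adjusted p = 4.71e-05) for *cco-1* RNAi and 0.19 (adjusted p = 0.00235) under *his-3* RNAi. Exons of *ceh-38* overlap those of *tra-2* on the other strand. *ceh-48*, a pan-neuronal ONECUT gene, fell by 0.26 with *cco-1* RNAi (SE 0.086, adjusted p = 0.0133), a call lost under upper quartile, library size or reference gene scaling and without the second *cco-1* RNAi library (-0.23, adjusted p = 0.0517). Of 14 neuronal markers, 9 rose and 2 fell with *cco-1* RNAi, and 7 rose and 0 fell with *his-3* RNAi. Their sums ran from 22078 to 22448 with *cco-1* RNAi, 16134 to 17929 with *his-3* RNAi and 14801 to 14870.0 in EV, and their part in the results of neuronal members was not tested.

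A further 3 CUT genes lie side by side on chromosome X, all on the minus strand, in the order *ceh-41*, *ceh-21* and *ceh-39* between positions 1846608 and 1856172 of the WBcel235 build. Gaps of 104 and 1138 bases separate them. *ceh-39* is known as a signal by which the worm counts its X chromosomes. *ceh-41* had 185, 208 and 185 normalized counts with *cco-1* RNAi, 102, 115.0 and 111 under *his-3* RNAi and 111, 114.9 and 132 in EV. The *cco-1* RNAi libraries were the highest, and those of *his-3* RNAi and EV overlapped. *ceh-21* had 142, 128 and 159 with *cco-1* RNAi, 72.1, 82.8 and 88.7 under *his-3* RNAi and 103, 105 and 103 in EV, so that its groups did not overlap. With *cco-1* RNAi both rose, *ceh-41* by 0.69 (SE 0.10, adjusted p = 1.75e-05) and *ceh-21* by 0.46 (SE 0.12, adjusted p = 0.00219) on the log2 scale. With *his-3* RNAi *ceh-21* fell by 0.35 (SE 0.13, adjusted p = 0.0274), a call lost under 6 of the 21 settings, and *ceh-41* measured -0.13 (adjusted p = 0.366). The value of *ceh-21* was -0.13 (adjusted p = 0.37) with library size scaling and -0.06 (adjusted p = 0.697) with *act-1* and *pmp-3*. The treatments differed from each other by 0.82 (SE 0.10, adjusted p = 2.73e-06) for *ceh-41* and 0.81 (SE 0.12, adjusted p = 1.46e-05) for *ceh-21*. *ceh-39*, the scarcest of the 3, ranged from 36.9 to 48.8 with *cco-1* RNAi, 19.7 to 55.2 with *his-3* RNAi and 33.1 to 44.6 in EV, and was not called. Of all 87 members, 23 lay within 20000 bases of another, and 13 of these were tested.

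**Figure D4:**
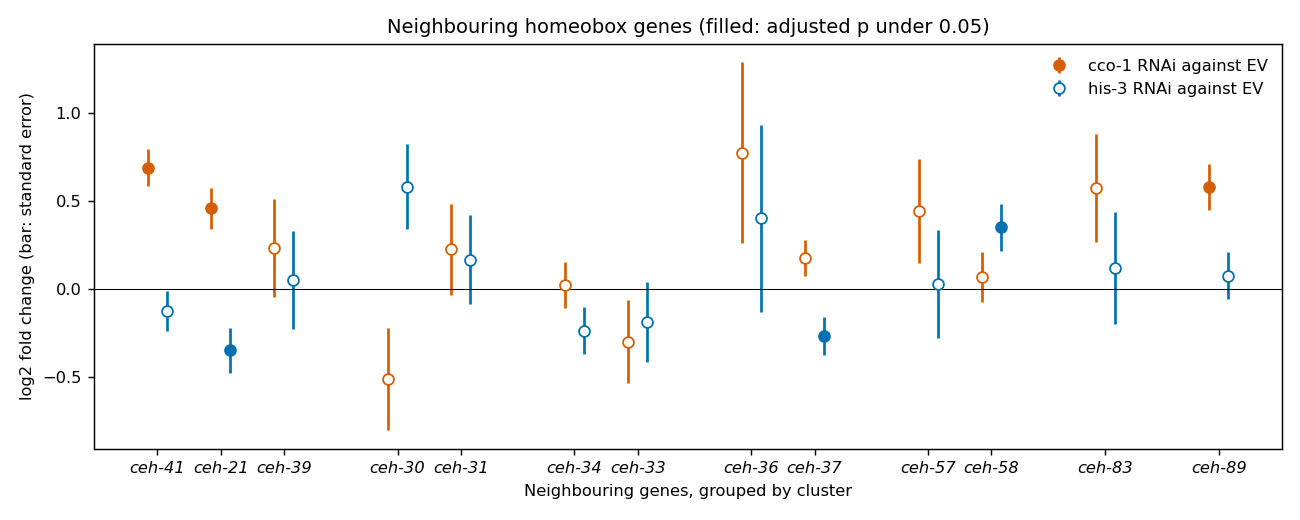
Log2 fold changes against EV with standard errors for neighbouring homeobox genes, *cco-1* RNAi and *his-3* RNAi side by side, filled where the adjusted p was under 0.05. The 13 genes are all tested members within 20000 bases of another, and the neighbours of *ceh-83* and *ceh-89* were not tested. *ceh-41*, *ceh-21* and *ceh-89* are the filled *cco-1* RNAi points.

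PRD and Sine oculis genes showed few calls. With *cco-1* RNAi 0 of the 8 PRD genes tested and 0 of the 3 Sine oculis genes were called. Among all genes tested, 34.9% rose and 35.9% fell with *cco-1* RNAi, and 26.9% rose and 27.9% fell with *his-3* RNAi. Of the PRD genes tested, *ceh-37* alone had a mean normalized count of at least 20. With *his-3* RNAi 1 PRD gene rose and 1 fell, and 0 Sine oculis genes were called. *ceh-10*, a PRD gene that specifies AIY and CAN neurons, was called higher with *his-3* RNAi (0.72 (adjusted p = 0.0442)), and *ceh-37*, an Otx-type gene of amphid neurons, lower (-0.27 (adjusted p = 0.0434)). *ceh-37* turned to 0.025 when scaled by *act-1* and *pmp-3* and lost its call under 6 of the 21 settings, among them leaving out the third EV library (-0.18) or the third *his-3* RNAi library (-0.20), and *ceh-10* lost its call under 12 of the 21 settings. The Sine oculis genes *ceh-32*, *ceh-33* and *ceh-34*, which act in the head and pharynx, had log2 fold changes between -0.30 and 0.02 with *cco-1* RNAi and between -0.24 and 0.22 under *his-3* RNAi.

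Among the remaining *ceh* genes, many of them known by sequence alone, 13 were tested. Of these, 6 rose and 2 fell with *cco-1* RNAi, beside 34.9% and 35.9% of all genes tested. With *his-3* RNAi 3 rose and 1 fell, beside 26.9% and 27.9%. *ceh-99* gave the clearest opposite pattern. Normalized counts of *ceh-99* were 57.3, 40.9 and 59.02 with *cco-1* RNAi, 219, 257 and 274 under *his-3* RNAi and 136, 140.3 and 146 in EV. The 3 groups were far apart, lowest with *cco-1* RNAi and highest under *his-3* RNAi. The log2 fold change against EV was -1.43 (SE 0.15, adjusted p = 2.31e-07) for *cco-1* RNAi and 0.83 (SE 0.11, adjusted p = 8.44e-06) under *his-3* RNAi. The treatments differed by -2.26 (SE 0.13, adjusted p = 1.68e-10), which puts *cco-1* RNAi at 0.209 of the level of *his-3* RNAi. *ceh-86*, which is scarce, had 30.7, 38.9 and 40.9 with *cco-1* RNAi, 13.1, 21.2 and 25.5 under *his-3* RNAi and 16.6, 8.84 and 11.4 in EV. It rose by 1.57 (SE 0.29, adjusted p = 0.000128) with *cco-1* RNAi, every library above those of EV, and measured 0.69 (adjusted p = 0.0801) for *his-3* RNAi. *ceh-91* was called higher with both treatments, at 572, 563 and 583 with *cco-1* RNAi and 494, 464 and 475 under *his-3* RNAi, against 368, 369 and 407 in EV. Its groups were again fully separate, at 0.58 (adjusted p = 5.58e-07) for *cco-1* RNAi and 0.32 (adjusted p = 0.000547) under *his-3* RNAi on the log2 scale. *ceh-92* was not called, with 671 ± 57.7 normalized counts with *cco-1* RNAi, 711 ± 33.9 with *his-3* RNAi and 690.1 ± 52.9 in EV (SD, n = 3 each). *ceh-93*, *ceh-89*, *ceh-88* and *ceh-100* rose with *cco-1* RNAi by 0.51, 0.58, 0.31 and 0.18 on the log2 scale in that order, and were not called with *his-3* RNAi. Under scaling by *act-1* and *pmp-3*, *ceh-88* was called higher with *his-3* RNAi (0.26, adjusted p = 0.0174). Its exons overlap those of C49C3.6 on the same strand. *ceh-79* fell by 0.45 with *cco-1* RNAi (adjusted p = 3.88e-05). Its value for *his-3* RNAi was -0.18 (adjusted p = 0.0429), a call made under only 7 of the 21 settings, and the sign turned under library size (0.043) and reference gene scaling (0.11). *ceh-58* was called higher with *his-3* RNAi only (0.35 (adjusted p = 0.0375)), a call lost under 6 of the 21 settings. Its value was 0.22 (adjusted p = 0.235) without the first EV library and 0.20 (adjusted p = 0.204) without the second *his-3* RNAi library.

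Of the 11 tested bHLH genes, 2 rose and 3 fell with *cco-1* RNAi, beside 34.9% and 35.9% of all genes tested. With *his-3* RNAi 3 rose and 0 fell, beside 26.9% and 27.9%. *hlh-11*, the most abundant member, had 4524, 4442 and 4490.4 normalized counts with *cco-1* RNAi, 2803, 3253 and 3089 under *his-3* RNAi and 1984, 2173 and 2066 in EV. No groups overlapped, and *cco-1* RNAi stood highest. The log2 fold change was 1.11 (SE 0.053, adjusted p = 8.49e-12) for *cco-1* RNAi, a ratio of 2.16, and 0.56 (SE 0.053, adjusted p = 1.79e-07) for *his-3* RNAi, a ratio of 1.47. The treatments differed by 0.56 (SE 0.052, adjusted p = 5.73e-08). HLH-11 is known to repress the lipase gene *atgl-1*. *atgl-1* itself was not called for *cco-1* RNAi, at -0.09 (adjusted p = 0.13), and was called higher for *his-3* RNAi, at 0.15 (adjusted p = 0.0163).

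*hlh-33* and *hlh-19* fell with *cco-1* RNAi and were not called under *his-3* RNAi. The difference between the treatments was -1.04 (adjusted p = 1.27e-06) for *hlh-33* and -2.52 (adjusted p = 0.00124) for *hlh-19*. For *hlh-33*, counts came to 73.7, 68.9 and 72.6 with *cco-1* RNAi, 135, 168 and 139.7 under *his-3* RNAi and 166, 145 and 148 in EV, and its log2 fold change was -1.09 (SE 0.13, adjusted p = 7.96e-07) for *cco-1* RNAi and -0.05 (adjusted p = 0.731) under *his-3* RNAi. The *cco-1* RNAi libraries were all under 80 normalized counts and the others all over 130. *hlh-19*, of the achaete-scute-like group, is thinly covered, with 1, 0 and 10 raw reads with *cco-1* RNAi, 36, 19 and 18 under *his-3* RNAi and 22, 24 and 27 in EV. Scaled for depth, the summed reads of *cco-1* RNAi were 0.154 of those in EV (95% interval 0.0737 to 0.292, counting error only). The fitted log2 fold change was -2.66 (SE 0.59, adjusted p = 0.00073), and it came to -5.32 without the third *cco-1* RNAi library, which holds 10 of the 11 reads. *hlh-10* was called lower with *cco-1* RNAi at -0.81 (adjusted p = 0.0458), but 11 of the 21 settings lost that call.

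Of 2 tested MyoD and Twist genes, 1 rose and 0 fell with each treatment, and the 1 E protein gene was not called. Of 4 tested achaete-scute-like genes, 0 rose and 1 (*hlh-19*, above) fell with *cco-1* RNAi, and 1 rose and 0 fell with *his-3* RNAi. Among all genes tested, 34.9% rose and 35.9% fell with *cco-1* RNAi, and 26.9% rose and 27.9% fell with *his-3* RNAi. *hlh-3*, *hlh-6* and *hlh-19* had a mean normalized count under 20. *hlh-8*, the worm Twist gene of the mesodermal M lineage, rose with both treatments, at 35.8, 54.9 and 61.3 with *cco-1* RNAi and 47.8, 50.6 and 45.3 under *his-3* RNAi, against 22.8, 39.8 and 17.98 in EV. 1 EV library lay inside the range of *cco-1* RNAi. The log2 fold changes were 0.93 (adjusted p = 0.00478) for *cco-1* RNAi and 0.86 (adjusted p = 0.0105) under *his-3* RNAi, and the value for *his-3* RNAi was 0.73 (adjusted p = 0.0559) without the first EV library and 0.62 (adjusted p = 0.0692) without the third. *egl-15*, a fibroblast growth factor receptor gene known as a target of *hlh-8*, rose in both comparisons. Its log2 fold change was 0.38 (adjusted p = 4.61e-05) for *cco-1* RNAi and 0.58 (adjusted p = 5.72e-07) under *his-3* RNAi. *arg-1*, the other *hlh-8* target listed, had too few reads to be tested. The part of *hlh-8* in the rise of *egl-15* was not tested. *hlh-1*, the MyoD gene of body wall muscle, had 177 ± 15.4 normalized counts with *cco-1* RNAi, 187 ± 31.5 with *his-3* RNAi and 210.4 ± 6.16 in EV (SD, n = 3 each), with no call. Of 6 body wall muscle markers, 0 rose and 4 fell with *cco-1* RNAi, and 0 rose and 5 fell with *his-3* RNAi. Their sums ran from 350754 to 369058 with *cco-1* RNAi, 311718 to 348315 with *his-3* RNAi and 437556 to 492432 in EV. The part of muscle tissue in the *hlh-1* result was not tested. *hlh-2*, the E protein that partners many bHLH factors, was not called either, at 0.24 (adjusted p = 0.213) for *cco-1* RNAi and 0.26 (adjusted p = 0.194) under *his-3* RNAi. *hlh-3*, a proneural gene, was called higher with *his-3* RNAi at 1.13 (adjusted p = 0.0357) on 8.41 mean normalized counts, against 3.78 in EV, and 6 of the 20 settings that could test it lost the call. *hlh-4*, of the achaete-scute-like group, had 15.3, 11.98 and 11.4 with *cco-1* RNAi, 18.7, 36.8 and 20.8 under *his-3* RNAi and 36.3, 15.5 and 16.1 in EV, and was called in neither comparison with EV. *hlh-13*, of the Ptf1a and NHLH-like group, was not tested, with 13 reads in all with *cco-1* RNAi, 13 under *his-3* RNAi and 7 in EV. *hlh-6*, required in pharyngeal glands, was not called (-0.15 (adjusted p = 0.69) with *cco-1* RNAi), while of 4 tested *phat* genes of those glands 1 rose and 3 fell with each treatment. Summed over the list, *phat* counts ran from 484 to 646 with *cco-1* RNAi, 1321 to 1467 with *his-3* RNAi and 1858 to 1945 in EV. The part of gland tissue in these results was not tested.

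Directly between the treatments, 10 members were higher with *cco-1* RNAi than with *his-3* RNAi and 17 lower, beside 31.8% and 36.8% of all genes tested. Past a log2 difference of 1 in size, 0 were higher and 8 lower, beside 8.22% and 13% of all genes tested. The 8 were *hlh-19*, *ceh-99*, *ceh-5*, *ceh-8*, *ceh-14*, *hlh-10*, *ceh-30* and *hlh-33*. Under all 21 settings stood 9 of the 10 higher and 10 of the 17 lower calls. *ceh-8*, a PRD gene, differed by -1.50 (adjusted p = 0.0237) and lost its call with DESeq2 (adjusted p = 0.0885), without the first *cco-1* RNAi library (-1.14, adjusted p = 0.103) and without the second *his-3* RNAi library (-1.28, adjusted p = 0.0859). Exons of *ceh-8* overlap those of ZK265.11 on the same strand. Of the 19 members with a mean under 20, 5 were called (26.3%), beside 39.1% of all genes so scarce. *ceh-5*, an NK-like gene, differed by -2.09 (SE 0.46, adjusted p = 0.000664), on 1.02, 6.99 and 2.27 normalized counts with *cco-1* RNAi, 14.99, 12.9 and 17.9 under *his-3* RNAi and 6.22, 8.84 and 9.46 in EV. Every library of *his-3* RNAi exceeded every one of *cco-1* RNAi, and against EV neither treatment was called. *ceh-30*, a BarH gene that protects male-specific sensory neurons from death, differed by -1.09 (SE 0.26, adjusted p = 0.00149), again without a call against EV.

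The HES-like genes of the REF-1 family, targets of Notch signalling in the embryo, were near the floor of detection: *hlh-25*, *hlh-26* and *hlh-28* had 0 reads in all 9 libraries, *hlh-27* had 2 and *hlh-29* had 3 in all. Reads that align to several places were not counted, and near-identical neighbours of this family could lose reads that way. The Olig-like genes *hlh-17*, *hlh-31* and *hlh-32*, expressed in glia of the head, are also close copies. *hlh-31* was left out by the filter, with 1, 3 and 0 raw reads with *cco-1* RNAi, 19, 12 and 13 under *his-3* RNAi and 0, 0 and 2 in EV. No library of the other groups had more than 3 reads. Scaled for depth, the sum with *his-3* RNAi was 20.03 times that in EV (95% interval 5.23 to 171, counting error only) and 9.79 times that with *cco-1* RNAi (3.56 to 37.5). Its neighbour *hlh-17*, 1356 bases away, had 7 reads in all with *cco-1* RNAi, 27 under *his-3* RNAi and 13 in EV. How reads were split between these copies was not tested. All 3 glial markers (*ptr-10*, *fig-1* and *vap-1*) rose with each treatment. Their sums ran from 2580.5 to 2605 with *cco-1* RNAi, 1406 to 1644 with *his-3* RNAi and 1034 to 1039.85 in EV. The part of glia in the *hlh-31* and *hlh-17* counts was not tested.

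Homeobox and bHLH genes under other names were counted for comparison. Of 37 such homeobox genes, 8 rose and 9 fell with *cco-1* RNAi, and 13 rose and 5 fell with *his-3* RNAi. Of 14 tested bHLH genes, 5 rose and 2 fell with *cco-1* RNAi, and 2 rose and 2 fell with *his-3* RNAi. Over all genes tested, 34.9% rose and 35.9% fell with *cco-1* RNAi, and 26.9% rose and 27.9% fell with *his-3* RNAi. *hmbx-1*, the gene of a homeobox-containing protein, was called higher in both comparisons, at 438 ± 5.02 normalized counts with *cco-1* RNAi and 193 ± 28.4 under *his-3* RNAi, against 88.99 ± 6.73 in EV (SD, n = 3 each). *unc-39*, a Sine oculis class gene of mesoderm and neurons, rose with *his-3* RNAi to 90.9, 90.1 and 61.4, against 10.4, 9.94 and 13.3 in EV, a log2 fold change of 2.83 (SE 0.24, adjusted p = 3.28e-08). With *cco-1* RNAi it had 7.16, 9.98 and 7.95 and was not called (-0.42 (adjusted p = 0.346)). *dve-1*, a homeobox gene known for its part in the mitochondrial unfolded protein response, fell by 0.82 with *cco-1* RNAi (adjusted p = 3.29e-10) and rose by 0.28 (adjusted p = 9.01e-05) with *his-3* RNAi.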

How the data were processed

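mRNA of 9 libraries (N2 worms, 3 groups of 3) was sequenced by the authors as stranded polyadenylated RNA, aligned with STAR 2.5.3a to WBcel235 and counted per gene with HTSeq. The deposited table holds raw counts for 46739 genes, as whole numbers of reads, with no normalization. Reads aligning to several places were not counted. The 5 HTSeq summary lines were left out of all tests. Reads on no annotated gene made up between 0.715 and 1.13% of a library. Groups were taken from the sample labels.

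A gene was tested if over 5 reads fell on it in over 3 libraries (16817 genes), using edgeR 4.0.16 in R 4.3.3: TMM scaling, 1 mean per group over all 9 libraries, the quasi-likelihood F test, and Benjamini-Hochberg adjustment over all genes tested. The methods of the study name limma, which was run as limma-voom (limma 3.58.1). The prior count was 0.125, and standard errors are the fold change divided by the square root of F. Normalized counts are counts scaled to the mean effective library size; RPKM used exon lengths of Ensembl release 115. The fit was tested on simulated counts for *cco-1* RNAi against EV, where it recovered 100 of 100 genes changed 2-fold and 100 of 100 changed 4-fold. There were 11 false calls among 16817 genes. The changed genes had an expected count over 20 and the spread was fixed, so scarcer members and smaller changes are not covered. Alternatives were DESeq2 1.42.0, 4 other scalings, other filters, the groups compared alone, a replicate block, a prior count of 2, other thresholds and leaving out each library. Members and lists were chosen with earlier results of these data known. Text genes follow a rule: the 12 largest called changes in each comparison with EV at a mean of at least 20 in a group, the most abundant and lowest-p member of each class, members called in opposite directions, and the 5 lowest p between the treatments. Members named beyond this rule were chosen after their values were seen. Sequences were not used here.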

Additional observations from a re-analysis of the deposited data

Results flagged for a closer look

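The 26 members left out by the filter on low counts were searched in each comparison with EV. In 5, every library of 1 treatment lay above every EV library in normalized counts, and *hlh-34* had every *his-3* RNAi library below. Non-overlap, in either direction, held for 60% of all genes tested under *his-3* RNAi, against 75.7% under *cco-1* RNAi. How many of the 26 would separate by chance was not tested. Summed reads of the 5 are given here. *hlh-31* had 44 reads with *his-3* RNAi, against 2 in EV. *hlh-14*, a proneural gene, had 8 with *his-3* RNAi and 0 in EV. *ceh-51* and *ceh-84* had 8 each with *his-3* RNAi, against 1 each in EV, and *hlh-16* had 14 with *cco-1* RNAi, against 8 in EV. Apart from *hlh-31*, these are small numbers spread over 3 libraries.

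Reads that aligned to the genome but to no annotated gene made up 1.04% of the reads with *his-3* RNAi (SD 0.078, n = 3), against 0.767% in EV (SD 0.019, n = 3), and 0.752% with *cco-1* RNAi (SD 0.042, n = 3).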

How the results depend on the processing

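With *cco-1* RNAi against EV, 17 members were higher and 9 lower. A log2 fold change of at least 1 left 2 and 4, and one of at least 2 left 0 and 1. Leaving out single libraries gave 15 to 18 higher and 8 to 12 lower. With *his-3* RNAi against EV, the 13 higher calls became 25 with library size scaling, 28 with *act-1* and *pmp-3*, and 8 with DESeq2, and 1 and 0 at log2 fold changes of 1 and 2. The 4 lower calls became 1 under upper quartile, library size and reference gene scaling, and 0 at both fold thresholds. Leaving out single libraries gave 8 to 13 higher, the 8 without the first EV library, and 1 to 7 lower. Here 1 remained without the third EV library, 2 without the first *his-3* RNAi library and 7 were found without the second. Between the treatments, 10 higher and 17 lower calls became 0 and 8 at a log2 difference of 1 and 0 and 3 at 2, and ran from 10 to 14 and 12 to 17 without single libraries. The log2 fold change of *ceh-18* with *his-3* RNAi turned to 0.13 with library size scaling and to 0.21 with *act-1* and *pmp-3*, and that of *ceh-79* to 0.043 and 0.11 in these settings. With *act-1* and *pmp-3*, *ceh-37* turned to 0.025 and *ceh-88* to 0.26. Over the 61 tested members, 3581 values kept their side of the threshold, 115 passed it anew and 117 dropped below it. A further 6 changed sign with a call in the main or the alternative setting. Sign changes without such a call are counted among the 3581. So are 183 values with a prior count of 2, a setting that cannot alter a call.

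A replicate block gave 16 higher and 10 lower for *cco-1* RNAi, 13 and 2 under *his-3* RNAi, and 10 and 20 between the treatments. Libraries of the same number did not deviate together (r between -0.04 and 0.05 in 9 pairs, against -0.07 to 0.07 in 18 pairs of other numbers, across genes, which are not independent), so the numbers were not treated as pairs.

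Depth limits what can be tested: 26 members had too few reads.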
